A study of Homo sapiens with 42 samples.

Results

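Gene expression was compared between OCI-AML3 cells given both a menin inhibitor and a MEK inhibitor and OCI-AML3 cells given the menin inhibitor alone, at day 6. OCI-AML3 is a human acute myeloid leukaemia line labelled as carrying mutant NPM1 (NPM1c+). The combination was VTP-50469, the menin inhibitor (the sample labels also write its number as VTP-50649), at 100 nM together with selumetinib, the MEK inhibitor, at 100 nM. It was set against VTP-50469 at 100 nM alone, so that both groups carry the menin inhibitor and differ by selumetinib. Each group had 3 libraries, which makes 6 of the 42 in the series, and all genes of the deposited count table were members, 58869 of them, of which 16384 passed the filter on low counts. DMSO at day 6, the same pair of treatments at day 3, and the same pair in NOMO1, an acute myeloid leukaemia line with a KMT2A rearrangement, are given beside the comparison, each with 3 libraries a group. The labels do not say for how long selumetinib was present in the combination, nor whether replicate libraries were grown as separate cultures, so the p-values measure the spread between these libraries, which may be technical.

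Menin is a scaffold protein that holds the KMT2A methyltransferase complex at a set of genes that keep leukaemia cells immature, among them MEIS1, PBX3 and the HOXA genes. MEK is the kinase that phosphorylates and activates ERK, the last kinase of the RAS and RAF cascade. Active ERK switches on transcription of growth genes and, with them, of its own inhibitors, the dual specificity phosphatases and the Sprouty proteins, so transcripts of these inhibitors are commonly read as a measure of the cascade's output.

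Total counts ran from 15561248 to 16527185 in the combination libraries and from 16906449 to 21995911 in the VTP-50469 libraries. Between 16742 and 17438 genes had at least 1 count in the combination libraries, against 19407 to 20612 with VTP-50469. Of 13 myeloid marker genes, 12 exceeded 1 CPM (a count scaled to library size) in both groups, with a summed level of 4452 to 4939.5 CPM in the combination and 3724 to 3783 CPM with VTP-50469. Scatter between replicates, as a chi-square per gene that would be 1 under counting error alone, was 13.3 to 21.4 in the combination and 6.79 to 7.76 with VTP-50469. At day 3, VTP-50469 replicate 2 stood apart from its partners, at 32.1 and 30.9 against 4.34 between these. Libraries of bulk cells do not tell fewer cells of a kind apart from less RNA per cell. CPM values given below were scaled by TMM within the line, with the exceptions that follow. Marker sums, and the means of EPOR and CD1A, are on unscaled totals. Values in the comparison with NOMO1 were scaled by TMM over all 42 libraries, so they differ from those given elsewhere for the same libraries.

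Of the 16384 genes tested, 2737 (16.7%) were higher and 4030 (24.6%) lower in the combination than with VTP-50469 alone, by edgeR's quasi-likelihood test with Benjamini-Hochberg adjustment at 0.05. The split moved with the scaling, from 2503 higher and 4325 lower with library totals to 3083 higher and 3696 lower with relative log expression factors. Shares over all genes given below are those of the main fit. More than 2-fold differences were called for 900 genes higher (5.49%) and 1205 lower (7.35%), and the median log2 fold change over all genes was -0.04. Among the largest rises were genes of the monocyte surface. CSF1R, the receptor of macrophage colony-stimulating factor at chr5:150053291-150113372 (GRCh38), had 11.3, 6.56 and 11.9 CPM in the combination, against 0.989, 0.421 and 0.631 CPM with VTP-50469 and 6.49, 5.13 and 4.28 CPM with DMSO (log2 fold change 3.85 ± 0.36 (SE), adjusted p = 4.62e-09). Every combination library lay above every library of the other groups. Other large rises were those of CNR2 (a cannabinoid receptor of leukocytes), S100A8, SLC24A4, NHSL2, PILRA (an inhibitory receptor of myeloid cells), MS4A6A, HMOX1 (haem oxygenase), MT-RNR1 (the small mitochondrial ribosomal RNA), SNORD3A and MIR3648-1, with log2 fold changes of 2.72 to 4.26. SNORD3A and MIR3648-1 have near-identical copies, so their values are uncertain.

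Several of the largest falls were in genes that VTP-50469 libraries expressed and DMSO libraries almost did not. NPPC, which encodes C-type natriuretic peptide, had 0 counts in all 3 combination libraries, against 23.5, 26.98 and 27.1 CPM with VTP-50469 and 0.236, 0 and 0.0548 CPM with DMSO. It was therefore at least 403-fold lower in the combination, with a floor of 3 counts over the group (adjusted p = 2.12e-06). SPARC, a collagen-binding matrix protein, had 0.393, 0 and 1.33 CPM in the combination, 86.2, 73.3 and 76.8 CPM with VTP-50469 and 0.236, 0.115 and 0.329 CPM with DMSO (log2 fold change -7.07 ± 1.20 (SE), adjusted p = 0.000228). For both genes the combination libraries overlapped those of DMSO and lay far below those of VTP-50469. MMP1 (interstitial collagenase), BBOX1 (the last enzyme of carnitine synthesis), LYPD6 and its neighbour LYPD6B, H19 (an imprinted long RNA), RGS4 (a regulator of G protein signalling), ONECUT3 (a homeobox factor) and CXCL11 were also low in the combination, with at most 4.37 CPM in any combination library and at least 3.73 CPM in every VTP-50469 library. CXCL11 itself had 1.701, 4.37 and 4.11 CPM in the combination and 119, 102 and 108 CPM with VTP-50469, and in none of these genes did the libraries of the 2 groups overlap.

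**Figure D1:**
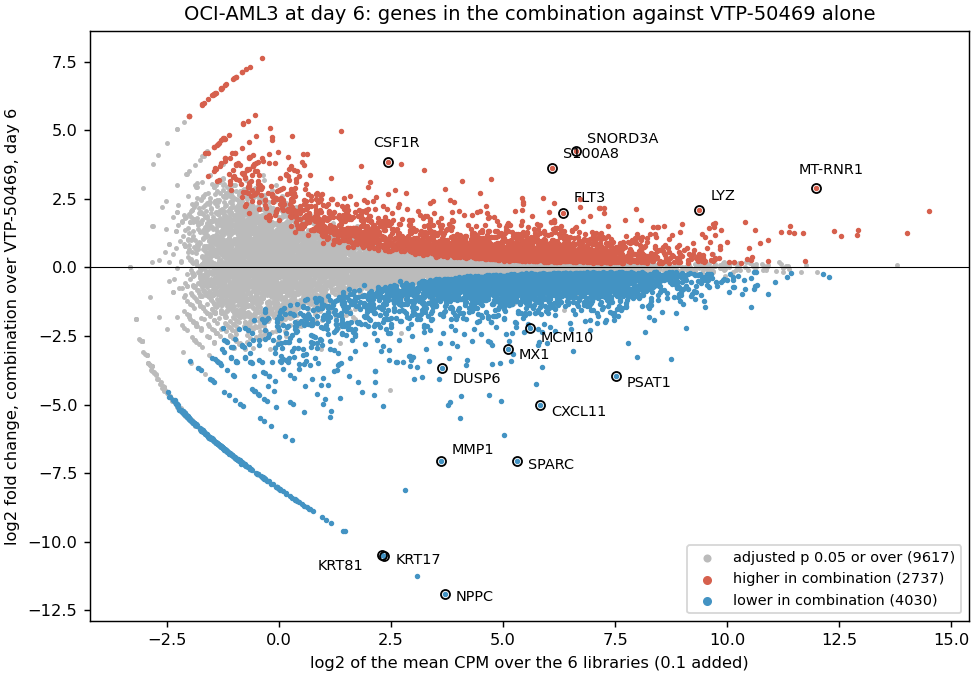
Each point is 1 of the 16384 genes tested in OCI-AML3 at day 6, by its mean CPM over the 6 libraries (horizontal, log2, with 0.1 added) and its fitted log2 fold change of the combination over VTP-50469 (vertical). Red points are the 2737 genes called higher and blue points the 4030 called lower, and the fitted values of NPPC, KRT17 and KRT81 at the bottom, with 0 counts in every combination library, are no measure of size.

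Transcripts that read out ERK activity were lower in the combination. Of 23 tested genes of the ERK feedback and effector list, 18 fell and 2 rose (BMF and ELK3), with a median log2 fold change of -1.28 against -0.04 over all genes. With VTP-50469 alone the mean level was above that with DMSO for 20 of the 23, and in the combination for 9. DUSP6, the phosphatase that inactivates ERK itself (at chr12:89347232-89353271), had 0.851, 2.51 and 1.96 CPM in the combination, against 24.5, 22.3 and 21.9 CPM with VTP-50469 and 11.7, 6.86 and 10.4 CPM with DMSO (log2 fold change -3.68 ± 0.37 (SE), adjusted p = 1.97e-08). The 3 groups did not overlap, and the combination was below DMSO as well as below VTP-50469. SPRY4, a Sprouty inhibitor of receptor signalling, had 20.9, 21.5 and 27.2 CPM in the combination, against 103, 83.6 and 102 CPM with VTP-50469 and 60.8, 63.5 and 56.3 CPM with DMSO (log2 fold change -2.05 ± 0.17 (SE), adjusted p = 1.91e-09). SPRY1 had 0 counts in each combination library and 3.37, 3.61 and 2.53 CPM with VTP-50469. The ETS factor genes ETV4 and ETV5, which are targets of ERK, fell too: ETV5 had 12.6, 15.5 and 15.9 CPM in the combination, 72.2, 70.99 and 78.8 CPM with VTP-50469 and 26.7, 26.2 and 28.5 CPM with DMSO (log2 fold change -2.34 ± 0.22 (SE), adjusted p = 4.5e-08). ETV4 had 1.18, 0.643 and 2.15 CPM in the combination and 21.6, 23.8 and 21.4 CPM with VTP-50469 (log2 fold change -4.06 ± 0.48 (SE), adjusted p = 2.89e-06). SPRY2 (-1.28), TRIB2, a pseudokinase that binds MEK (-1.71), and PHLDA1 (-1.39) fell by smaller amounts on the log2 scale. PHLDA1 lay above DMSO in the combination, with 30.95, 38.00 and 32.4 CPM in the combination, 95.7, 73.6 and 96.1 CPM with VTP-50469 and 13.98, 16.1 and 20.8 CPM with DMSO.

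The genes of the cascade itself moved in both directions. Of 26 tested RAS, RAF, MEK and ERK components, 9 rose and 8 fell, with a median of -0.02, where 16.7% of all genes rose and 24.6% fell. MAP2K1, which encodes MEK1, a target of selumetinib, fell to 64.4, 59.7 and 67.5 CPM in the combination, against 92.7, 91.2 and 86.4 CPM with VTP-50469 (log2 fold change -0.50 ± 0.09 (SE), adjusted p = 8.72e-05). The adaptor gene GRB2 rose by 0.47, the exchange factor genes SOS2 and RASGRP2 by 0.69 and 0.67, and the adaptor gene SHC1 fell, at -0.44 (log2 fold changes). NRAS lay at 105, 107 and 103 CPM in the combination and 104, 109.9 and 107 CPM with VTP-50469, a difference within the spread of the libraries (adjusted p = 0.796). Immediate early genes, the first transcripts to answer growth signals, went both ways too, with 6 of 25 higher and 7 lower. These counts are not far from the shares over all genes (16.7% and 24.6%). EGR1 had 0, 2.44 and 2.59 CPM in the combination, against 6.22, 6.86 and 7.94 CPM with VTP-50469 and 158, 159.5 and 140.4 CPM with DMSO. Its fall (log2 fold change -2.06 ± 0.65 (SE), adjusted p = 0.0202) lost its call without combination replicate 1 (adjusted p = 0.0612) or without VTP-50469 replicate 3 (adjusted p = 0.0575), and its adjusted p ran from 0.013 to 0.0612 over the alternative settings. FOSL2, a member of the AP-1 factors, went the other way, with 760.4, 743 and 771 CPM in the combination, 247, 259 and 261 CPM with VTP-50469 and 216, 215 and 208 CPM with DMSO (log2 fold change 1.57 ± 0.07 (SE), adjusted p = 2.89e-16). KLF4 (log2 fold change 2.31), KLF2 (1.08) and IER5 (0.85) rose, and JUN rose by 1.06 while FOSB (-2.22) and FOSL1 (-1.18) fell. CCND1, which encodes cyclin D1 and depends on ERK in many cells, fell to 20.4, 18.2 and 18.2 CPM in the combination, against 92.5, 95.1 and 104 CPM with VTP-50469 and 98.5, 101 and 83.6 CPM with DMSO (log2 fold change -2.36 ± 0.22 (SE), adjusted p = 1.3e-07).

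Genes that interferon induces were lower in the combination than with VTP-50469 alone. Of 40 tested interferon-stimulated genes, 36 fell and 0 rose, with a median log2 fold change of -1.40. In all 40 the mean level of the combination was above that with DMSO. Library by library, MX1, an antiviral GTPase at chr21:41420304-41459214, had 5.76, 10.7 and 6.95 CPM in the combination, 60.02, 57.3 and 65.1 CPM with VTP-50469 and 0.944, 0.576 and 0.658 CPM with DMSO (log2 fold change -2.96 ± 0.38 (SE), adjusted p = 4.71e-06). MX2 had 127, 148 and 126 CPM in the combination, 273, 275 and 274 CPM with VTP-50469 and 81.95, 78.2 and 78.5 CPM with DMSO (log2 fold change -1.04 ± 0.10 (SE), adjusted p = 7.98e-10). For both genes the combination formed a middle group that overlapped neither of the others. IFITM2, a membrane protein that blocks viral entry, had 131, 133 and 124 CPM in the combination against 229, 214 and 226 CPM with VTP-50469, and BST2 (tetherin) had 429, 398 and 417 CPM in the combination against 583, 613 and 589 CPM with VTP-50469 (-0.79 and -0.52 on the log2 scale). The ubiquitin-like protein gene ISG15 had 77.5, 113 and 87.9 CPM in the combination and 477, 461 and 495 CPM with VTP-50469, and IFITM1 had 0.7198, 4.18 and 1.01 CPM in the combination and 51.1, 45.7 and 52.1 CPM with VTP-50469. Those that did not pass were IFI44L (-1.55), OAS1 (-1.06), IRF9 (-0.47) and STAT2 (0.26), of which STAT2 had the list's only positive value. With a fit of only the 2 groups compared, or with no filter on low counts, 1 member was called higher.

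The promoters of these genes are shown because a short sequence recurs in them. The interferon response motif was searched as GAAA, any 2 bases and GAAA again, on both strands of the 250 bases before each RefSeq gene start (GRCh38.p14). Of the 40 genes, 30 matched an entry, with 40 starts between them, and 24 of those promoters (60%) held the motif, against 1061 of 35116 in the whole table (3.02%). The 3 holders below were taken in order of adjusted p among named members, then among the others, and each window has 60 bases with the motif in capitals. They lie at chr19:17405720-17405779 (minus strand), chr21:41431829-41431888 (plus strand) and chr15:88638922-88638981 (plus strand).
BST2: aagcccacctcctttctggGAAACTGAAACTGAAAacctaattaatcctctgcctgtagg
MX1: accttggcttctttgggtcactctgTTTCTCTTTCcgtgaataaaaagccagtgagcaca
ISG20: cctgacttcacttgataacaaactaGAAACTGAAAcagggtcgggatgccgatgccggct
In BST2 a pair of overlapping copies forms the run in capitals, and in MX1 the capitals show the reverse complement. An ETS motif, CCGGAAGT, was in 0 of 27 promoters of 15 matched ERK feedback genes (3.42% of all promoters), and an amino acid response motif, TGATGNAA, in 3 of 35 promoters of 23 matched genes of that list (8.57%, against 3.14%). A match describes the letters of the window only.

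Genes of antigen presentation on MHC class I, several of which interferon induces, went partly the same way: of 15 tested, 7 fell and 2 rose (median -0.23). TAP1, a subunit of the peptide transporter, had 98.5, 74.9 and 101 CPM in the combination, 159, 162 and 148 CPM with VTP-50469 and 27.7, 26.7 and 30.3 CPM with DMSO (log2 fold change -0.77 ± 0.13 (SE), adjusted p = 2.31e-05). Its partner TAP2 (-1.01) and the immunoproteasome genes PSMB8 (-0.89) and PSMB9 (-0.74) fell as well, whereas HLA-B (0.21) rose slightly on the log2 scale. Where VTP-50469 replicate 1, 2 or 3 or combination replicate 2 or 3 was left out, 1 of the class I genes was called higher in place of 2. Class II genes of the MHC gave 2 rises and 1 fall among 13, where 16.7% of all genes rose and 24.6% fell. CD74, the class II invariant chain, had a log2 fold change of 0.39, the regulator gene RFX5 -0.50, and HLA-DRA 0.93, which lost its call without any 1 of 5 of the 6 libraries. Chemokine and cytokine genes counted 11 lower and 2 higher of 22 (median -0.83), with CXCL10 among the lower (0, 0.0643 and 0 CPM in the combination and 1.98, 2.47 and 1.49 CPM with VTP-50469), TNF at -1.62, CCL5 at -1.07 and IL1RN, an antagonist of interleukin 1, higher at 0.74.

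Of 28 tested collagen and matrix genes, 10 fell, 3 rose and 15 did not pass (median -0.94), where 24.6% of all genes were lower, and 5 fell when only the 2 groups compared were fitted. Of the 28, 5 had 0 counts throughout 1 of the 2 groups, so they could only be called in 1 direction. COL1A2, a chain of type I collagen, had 7.53, 3.21 and 4.17 CPM in the combination, 59.9, 46.97 and 60.3 CPM with VTP-50469 and 0.5900, 0.288 and 0.1097 CPM with DMSO (log2 fold change -3.49 ± 0.64 (SE), adjusted p = 0.000445). TGFBI, a secreted adhesion protein, was high with DMSO too, with 0.131, 0.964 and 1.58 CPM in the combination, 16.4, 10.96 and 18.04 CPM with VTP-50469 and 30.7, 28.2 and 34.8 CPM with DMSO (log2 fold change -4.07 ± 0.43 (SE), adjusted p = 3.75e-07). VIM (vimentin) and MMP2 (gelatinase A) rose by 0.66 and 0.62 on the log2 scale, and MMP14 fell, at -0.37. KRT17 and KRT81, 2 of the largest falls, had 0 counts in the combination, and their VTP-50469 values differed widely between libraries: 25.8, 0.181 and 4.06 CPM for KRT17 and 19.4, 0.181 and 9.47 CPM for KRT81. KRT17 was called at an adjusted p of 0.0215 and lost its call when any 1 combination library was left out. KRT81 shares long stretches of sequence with other hair keratins, so its value is uncertain.

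COL1A2 also belongs to a list of epithelial and stromal markers, used to check the make-up of the samples. Summed over 10 such markers, levels were 3.87 to 9.45 CPM in the combination libraries, 52.7 to 92.7 CPM with VTP-50469 and 0.637 to 1.51 CPM with DMSO, on unscaled totals. Of the 10, 6 were at 0 in every combination library, none was at 0 throughout with VTP-50469, and 7 were at 0 with DMSO. Those at 0 in the combination were EPCAM, CDH1, KRT18, KRT19, COL3A1 and DCN. Of 7 markers tested 4 fell and 0 rose. Of these 7, 3 had 0 counts in every combination library, so they could only be called lower. Without VTP-50469 replicate 2, the library in which KRT17 and KRT81 were lowest, 7 fell, against 2 with DESeq2. Low counts were filtered anew in those fits, so the markers tested may not be the same 7. The part that cells of another type may have in these values was not tested. Of the remaining types, the summed megakaryocyte markers reached at most 4.95 CPM in the combination and 3.18 CPM with VTP-50469, T and NK cell markers 6.68 CPM in the combination and 4.27 CPM with VTP-50469, and mast cell, eosinophil and basophil markers 6.62 CPM in the combination and 3.52 CPM with VTP-50469. Of 12 erythroid markers, 11 were at 0 in the combination and 10 with VTP-50469, and EPOR, the erythropoietin receptor gene, was the only one over 1 CPM, with means of 22.7 CPM in the combination and 15.7 CPM with VTP-50469. Dendritic cell markers summed to 31.2 to 32.6 CPM in the combination, 38.5 to 44.8 CPM with VTP-50469 and 11.4 to 15.5 CPM with DMSO, and 6 of their 11 rows in the table were at 0 in the combination and 6 with VTP-50469. Among them CD1A, an antigen-presenting molecule, had means of 10.3 CPM in the combination, 25.3 CPM with VTP-50469 and 1.06 CPM with DMSO, and its fall lost its call without combination replicate 2. EBF1, a B cell factor, was the only B cell marker over 1 CPM, with 26.1, 43.8 and 36.2 CPM in the combination, 24.95, 24.1 and 24.7 CPM with VTP-50469 and 6.55, 5.47 and 6.800 CPM with DMSO, and its rise lost its call without combination replicate 2.

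**Figure D2:**
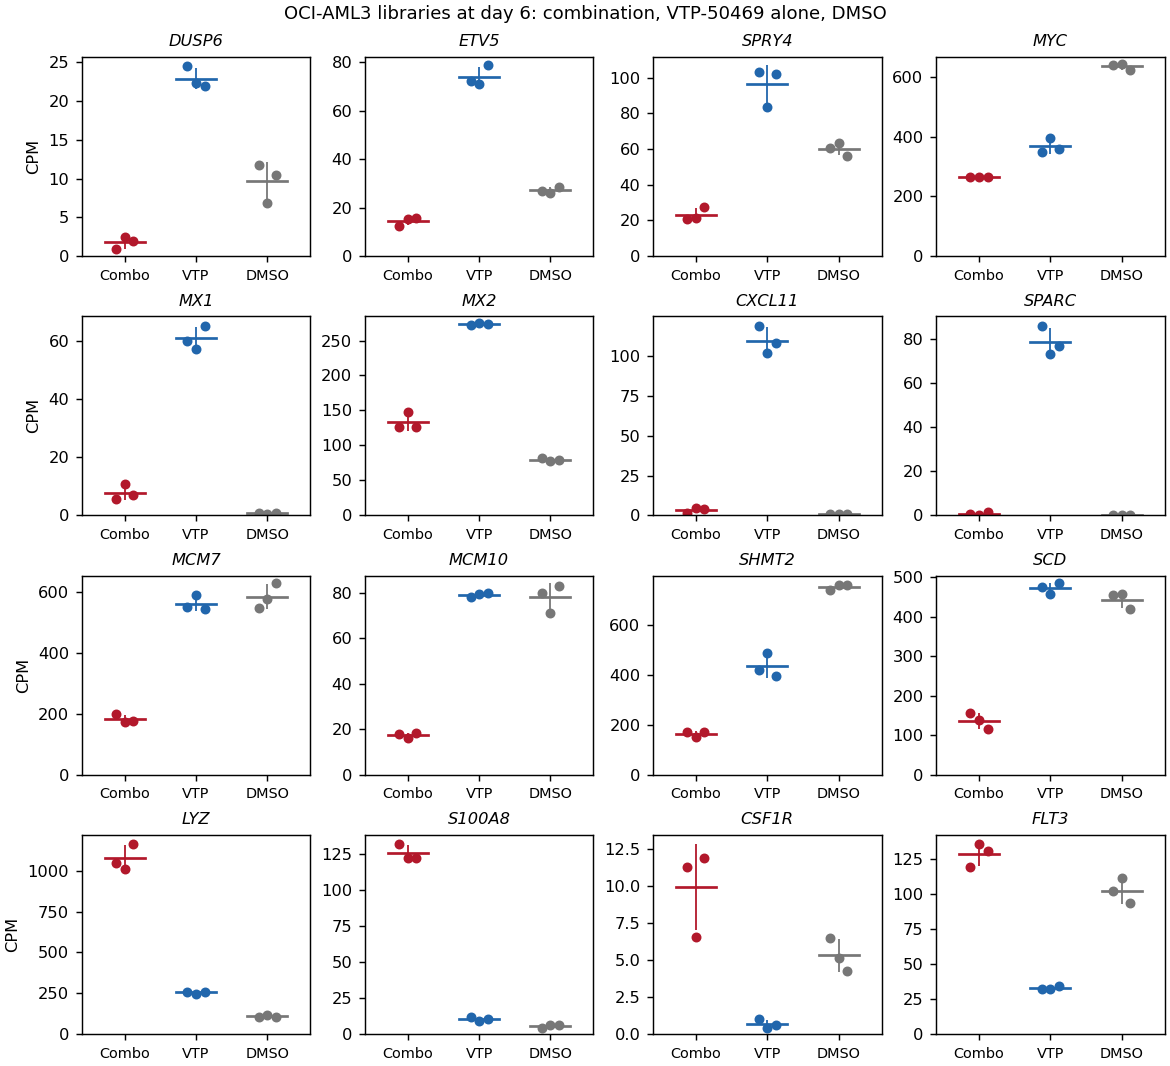
CPM (vertical, linear from 0) of 16 genes in each OCI-AML3 library at day 6, with the combination on the left, VTP-50469 in the middle and DMSO on the right of each panel; points are libraries, horizontal bars group means and vertical lines 1 SD (n = 3). DUSP6, ETV5 and SPRY4 were lowest in the combination, MX1, MX2, CXCL11 and SPARC were highest with VTP-50469, and LYZ and S100A8 were highest in the combination.

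DNA replication genes fell as a block. All 36 tested members were called lower in the combination, with log2 fold changes of -2.68 to -0.67 and a median of -1.27, where 24.6% of all genes were called lower. MCM7, a subunit of the helicase that opens replication origins (at chr7:100092728-100101940), had 199, 173 and 177 CPM in the combination, 551, 587 and 542 CPM with VTP-50469 and 546, 576 and 629 CPM with DMSO (log2 fold change -1.61 ± 0.09 (SE), adjusted p = 2.19e-13). MCM10, which helps to activate the helicase, had 17.7, 16.01 and 18.2 CPM in the combination, 77.99, 79.6 and 79.7 CPM with VTP-50469 and 79.7, 71.2 and 83.03 CPM with DMSO (log2 fold change -2.19 ± 0.13 (SE), adjusted p = 2.23e-13). VTP-50469 and DMSO libraries overlapped for both genes, and the combination lay below all of them. MCM3 (-1.42), MCM6 (-1.65) and CDC45 (-2.68), other parts of the replicative helicase, and RRM2 (-1.63), a subunit of ribonucleotide reductase, fell likewise on the log2 scale. Of genes outside that list, E2F1, the factor that switches on genes of S phase, had 12.3, 14.9 and 13.9 CPM in the combination, 39.8, 46.97 and 49.8 CPM with VTP-50469 and 46.02, 42.8 and 53.4 CPM with DMSO (log2 fold change -1.73 ± 0.15 (SE), adjusted p = 1.36e-10), and CCNE1 (cyclin E1) had a log2 fold change of -1.72. CDK4 was lower at -0.91 and CDK6 did not pass, at -0.14.

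In the 250 bases before the start, the E2F motif, searched as TTTGGCGC or TTTCCCGC on both strands, was found in 11 of 40 promoters of the 32 matched replication genes (27.5%) and in 677 of 35116 promoters in all (1.93%). Windows of 3 holders from the MCM helicase, whose values stand above, are given with the motif in capitals: MCM3 at chr6:52284883-52284942, MCM7 at chr7:100101551-100101610 and MCM6 at chr2:135876500-135876559, all on the minus strand of GRCh38.p14.
MCM3: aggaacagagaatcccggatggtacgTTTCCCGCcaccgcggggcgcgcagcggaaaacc
MCM7: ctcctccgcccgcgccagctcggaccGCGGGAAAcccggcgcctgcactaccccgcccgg
MCM6: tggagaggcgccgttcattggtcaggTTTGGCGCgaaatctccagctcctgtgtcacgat
MCM7 shows the reverse complement. Mitosis genes were lower by less: 25 of 32 fell and 0 rose, with a median of -0.37. MAD2L1, a part of the spindle checkpoint, had 73.5, 60.1 and 65.4 CPM in the combination, 154, 169 and 153 CPM with VTP-50469 and 139, 135 and 133 CPM with DMSO (log2 fold change -1.26 ± 0.08 (SE), adjusted p = 8.85e-13). PLK1, CCNA2 and CENPE had log2 fold changes of -0.62, -0.66 and -0.78, while CCNB2 (-0.10), CENPF (-0.09) and NUSAP1 (-0.04) did not pass. A CCAAT box, searched as CCAAT on both strands, was in 26 of 31 promoters of 25 matched mitosis genes (83.9%) and in 32% of all promoters. For MAD2L1 and PLK1 the windows are at chr4:120067039-120067098 (minus strand) and chr16:23678788-23678847 (plus strand), with the box in capitals (its reverse complement in MAD2L1). Each motif was counted on its own, whether or not another overlapped it.
MAD2L1: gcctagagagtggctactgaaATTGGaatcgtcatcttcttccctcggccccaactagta
PLK1: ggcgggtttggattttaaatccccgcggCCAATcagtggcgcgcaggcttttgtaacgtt
Among cell cycle entry genes and inhibitors, 9 of 22 fell and 8 rose (median -0.08), where 24.6% of all genes fell and 16.7% rose. The rises were inhibitors or antiproliferative genes, among them CDKN2B at 1.66 (5.76, 6.301 and 6.45 CPM in the combination and 2.27, 1.63 and 1.94 CPM with VTP-50469), CDKN2A at 1.04, CDKN1B at 0.29 and BTG1 at 1.07.

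Growth and biosynthesis genes were also lower. Of 28 MYC and nucleolar genes, 24 fell and 1 rose (median -0.66). MYC itself had 266, 263 and 265 CPM in the combination, 349.8, 395 and 358 CPM with VTP-50469 and 641, 644 and 623 CPM with DMSO (log2 fold change -0.47 ± 0.10 (SE), adjusted p = 0.000703), so that the 3 groups stood apart with the combination lowest. NME1 (a nucleoside diphosphate kinase) had a log2 fold change of -1.65, SRM (spermidine synthase) -1.11, NOP56 (a core protein of small nucleolar RNA particles) -0.75 and NCL (nucleolin) -0.72. Genes of amino acid supply and the unfolded protein response, many of them targets of ATF4, fell further: 20 of 26 fell and 1 rose (median -1.19). PSAT1, an enzyme of serine synthesis, had 21.8, 22.1 and 22.6 CPM in the combination and 288, 422 and 319.9 CPM with VTP-50469 (log2 fold change -3.95 ± 0.24 (SE), adjusted p = 2.24e-09). The amino acid transporter gene SLC7A5 had 89.2, 70.3 and 71.7 CPM in the combination and 696, 899 and 750.3 CPM with VTP-50469 (log2 fold change -3.34 ± 0.20 (SE), adjusted p = 1.94e-09). SLC3A2, its partner, had a log2 fold change of -1.77, PSPH and PHGDH, the other enzymes of serine synthesis, -1.83 and -3.28, SHMT2 of mitochondrial folate metabolism -1.41, the chaperone gene PDIA4 -0.92 and ATF4 itself -1.32. SHMT2 stepped down over the groups, with 169.7, 149.6 and 169 CPM in the combination, 418, 488 and 396 CPM with VTP-50469 and 736, 759 and 759 CPM with DMSO. The member that rose was CEBPB, a myeloid factor, at 1.25.

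Of 28 cholesterol and fatty acid synthesis genes, 21 fell and 1 rose (median -0.52). SCD, which makes monounsaturated fatty acids, had 155, 138 and 115 CPM in the combination, 474, 458 and 484 CPM with VTP-50469 and 454, 456 and 419 CPM with DMSO (log2 fold change -1.79 ± 0.10 (SE), adjusted p = 1.89e-13). FASN (fatty acid synthase) was at -1.22, ACLY at -0.66 and SREBF1, the factor that drives lipid synthesis genes, at -1.94 on the log2 scale. Of 25 genes of glucose uptake and glycolysis, 19 fell and 2 rose (median -0.58), with SLC16A1 (a lactate transporter) at -1.08, PFKP at -0.92, GPI at -0.77 and PGK1 at -0.68. TXNIP, which restrains glucose uptake, was higher: it had 1743, 1851 and 1761 CPM in the combination, 1074, 1111 and 1067 CPM with VTP-50469 and 943, 937 and 844 CPM with DMSO (log2 fold change 0.72 ± 0.07 (SE), adjusted p = 4.5e-09). HK2 and PFKFB3, both of glycolysis, were the list's rises (0.58 and 1.51). PDK4, a brake on pyruvate oxidation, rose by 1.71. Ribosomal protein genes did not move as a group, with 4 of 48 higher and 5 lower (median 0.02), and those counts moved with the scaling, from 4 higher and 8 lower with library totals to 9 higher and 3 lower with relative log expression factors.

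**Figure D3:**
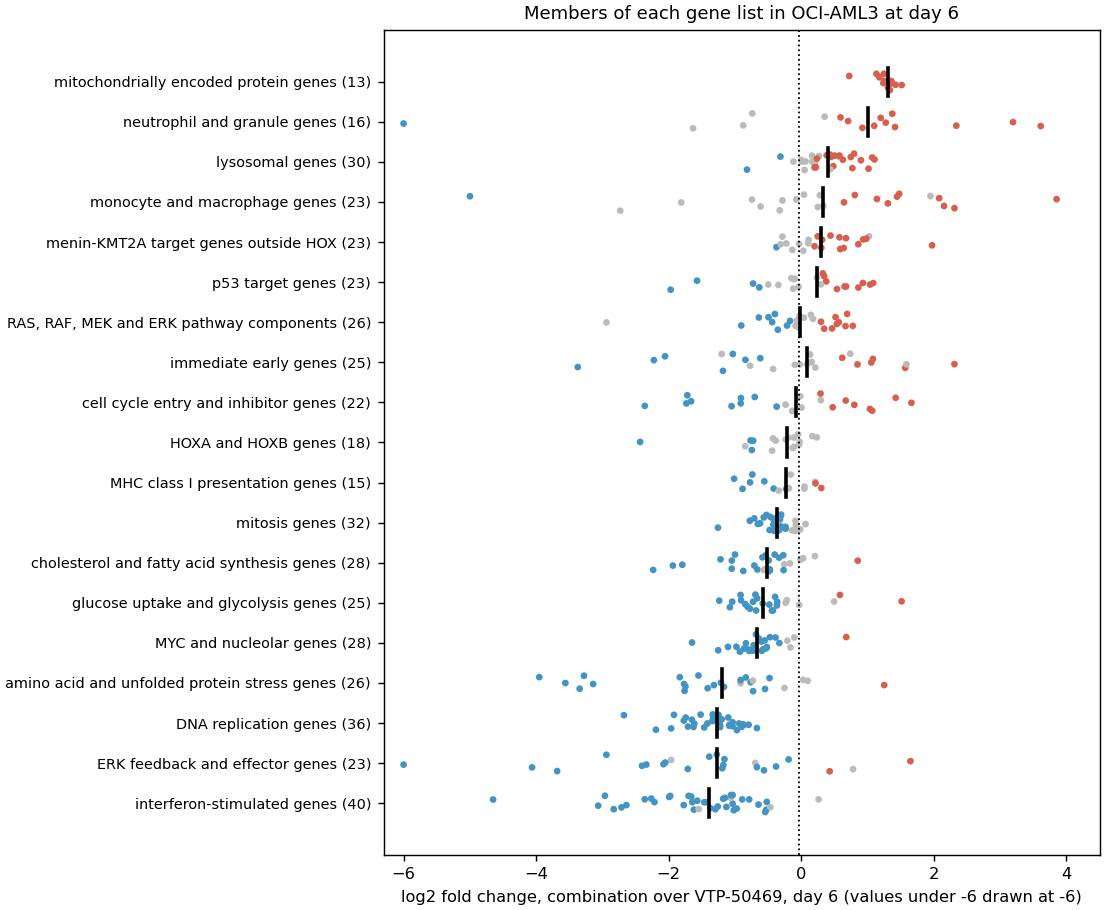
Each point is 1 tested gene of a list, placed by its log2 fold change of the combination over VTP-50469 at day 6 (horizontal; values under -6 are drawn at -6), with the number tested after each name; red and blue points were called higher and lower, grey points were not called, black bars are list medians and the dotted line is the median of all genes. Medians were -1.40, -1.28 and -1.27 for interferon-stimulated, ERK feedback and DNA replication genes, and 1.31 and 1.01 for mitochondrially encoded and neutrophil genes.

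Genes of monocyte and granulocyte maturation rose. Of 16 tested neutrophil and granule genes 11 rose and 1 fell (median 1.01), 10 of 23 monocyte and macrophage genes were higher and 1 lower (median 0.33), and of 13 myeloid markers 8 rose and 1 fell (median 0.38). LYZ, lysozyme, at chr12:69348341-69354234, had 1050.5, 1014 and 1167 CPM in the combination, 257, 247 and 259.6 CPM with VTP-50469 and 106, 117 and 104 CPM with DMSO (log2 fold change 2.08 ± 0.11 (SE), adjusted p = 4.04e-13). S100A8, a subunit of calprotectin, had 132, 123 and 123 CPM in the combination, 11.5, 9.21 and 10.1 CPM with VTP-50469 and 3.89, 6.57 and 6.42 CPM with DMSO (log2 fold change 3.61 ± 0.25 (SE), adjusted p = 4.49e-10). In both the 3 groups stood apart, with the combination highest and DMSO lowest. S100A9, the other subunit of calprotectin, had a log2 fold change of 2.34. VCAN (versican, a matrix proteoglycan of monocytes) had 232, 228 and 228 CPM in the combination, 50.7, 48.9 and 54.9 CPM with VTP-50469 and 64.8, 76.6 and 54.7 CPM with DMSO (log2 fold change 2.15 ± 0.13 (SE), adjusted p = 4.29e-12), and here VTP-50469 alone did not exceed DMSO. CD36, a scavenger receptor, rose by 1.48 and ITGAM, the integrin chain CD11b, by 1.37 (28.5, 33.2 and 37.7 CPM in the combination, 10.7, 13.2 and 14.4 CPM with VTP-50469 and 2.01, 1.33 and 1.81 CPM with DMSO). Granule genes CTSG (1.27), AZU1 (1.198), PRTN3 (1.10) and ELANE (0.92), which are typical of promyelocytes, rose together with the receptor gene CSF3R (1.41).

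Not every maturation gene rose. CD14, the monocyte receptor for bacterial lipopolysaccharide, fell to 0.327, 0 and 0 CPM in the combination, against 3.96, 3.19 and 3.79 CPM with VTP-50469 and 2.83, 2.77 and 3.56 CPM with DMSO (log2 fold change -5.00 ± 0.74 (SE), adjusted p = 2.63e-06). Its fitted value rests on few counts and was -9.09 without combination replicate 1. OLFM4 had 0 counts in the combination, against 0.174, 1.32 and 5.28 CPM with VTP-50469, and was the neutrophil gene that fell. FCN1 (-2.73) and MARCO (-1.81) did not pass. The factor genes SPI1 and CEBPA, which direct myeloid development, rose by 0.90 and 1.47 on the log2 scale. CEBPA had 515, 466 and 570.0 CPM in the combination, 172, 210.1 and 177 CPM with VTP-50469 and 477, 486 and 511 CPM with DMSO, so its level in the combination overlapped DMSO. ITGB2, the shared chain of leukocyte integrins, was lower, with 759.5, 659 and 764 CPM in the combination, 1338, 1428 and 1336 CPM with VTP-50469 and 1076, 1116 and 1081 CPM with DMSO (log2 fold change -0.91 ± 0.09 (SE), adjusted p = 1.04e-09). Of 19 integrin and adhesion genes 9 rose and 2 fell, with SELPLG (1.13), ITGB7 (1.55) and CD82 (1.06) among the rises. Lysosomal genes were higher in 18 of 30 and lower in 2 (median 0.41), with LAMP2 at 0.80, CTSD (cathepsin D) at 0.90, the regulators TFE3 and TFEB at 0.75 and 1.10, and CTSC lower at -0.82.

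Among genes held by menin and KMT2A, both groups compared here were under menin inhibition. Outside the HOX clusters 13 of 23 rose and 1 fell (median 0.30). FLT3, a receptor tyrosine kinase at chr13:28003274-28100592, had 119, 136 and 131 CPM in the combination, 31.9, 32.2 and 34.1 CPM with VTP-50469 and 102, 111 and 93.5 CPM with DMSO (log2 fold change 1.97 ± 0.12 (SE), adjusted p = 2.36e-12). Its combination libraries were all above those of DMSO, and those of VTP-50469 were far below both. RUNX2 (0.98), ZEB2 (0.93), MBNL1 (0.59) and PBX3 (0.67) rose too. MEIS1 had 29.9, 29.4 and 32.6 CPM in the combination, 34.5, 32.5 and 40.4 CPM with VTP-50469 and 52.9, 41.4 and 44.6 CPM with DMSO, and the difference between the combination and VTP-50469 did not pass (log2 fold change -0.23, adjusted p = 0.136). MEF2C fell (log2 fold change -0.37 ± 0.13 (SE), adjusted p = 0.0248), and this call was lost without combination replicate 2 or 3 or without VTP-50469 replicate 1 or 3. Of 18 HOXA and HOXB genes 4 fell and 0 rose (24.6% of all genes were lower). The falls were HOXB9 at -2.43, HOXB2 at -0.77, HOXB8 at -0.75 and HOXA5 at -0.73. Set against DMSO, the mean level was higher for 15 of the 18 HOX genes with VTP-50469 and for 14 in the combination. HOXA9 lay at 111, 87.5 and 84.2 CPM in the combination and 81.4, 85.4 and 73.7 CPM with VTP-50469 (log2 fold change 0.23, adjusted p = 0.0518), and passed in 9 of the alternative settings. Its adjusted p ran from 0.0213 to 0.449 over these settings, and its log2 fold change was 0.097 without combination replicate 1. MEN1, which encodes menin, was lower by a small amount (log2 fold change -0.37 ± 0.07 (SE), adjusted p = 0.000125), and KMT2A did not pass (-0.25, adjusted p = 0.169).

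Receptor tyrosine kinases and growth factor receptors rose in 9 of 19 and fell in 2 (median 0.42), with CSF1R, FLT3, CSF3R and INSR (0.81) of the smallest adjusted p. Of 14 BCL2 family genes 3 rose and 4 fell, shares near those over all genes (16.7% and 24.6%), and genes whose proteins promote apoptosis were among both. The rises were BMF, BCL2L11 and BBC3. BMF had 94.9, 114 and 111 CPM in the combination, 31.9, 37.1 and 33.2 CPM with VTP-50469 and 15.5, 13.7 and 10.97 CPM with DMSO (log2 fold change 1.65 ± 0.18 (SE), adjusted p = 4.63e-07). BCL2L11, which encodes BIM, had 178, 176 and 177 CPM in the combination, 112, 115 and 122 CPM with VTP-50469 and 119, 125 and 121 CPM with DMSO (log2 fold change 0.61 ± 0.07 (SE), adjusted p = 5.88e-08), and BBC3 rose by 0.65. PMAIP1, which encodes NOXA, fell (log2 fold change -1.57 ± 0.12 (SE), adjusted p = 1.38e-11), as did BCL2A1 (-3.31), BAK1 (-0.46) and BID (-0.23). BCL2 and MCL1, whose proteins block apoptosis as that of BCL2A1 does, did not pass, with log2 fold changes of 0.11 (adjusted p = 0.586) and -0.01 (adjusted p = 0.906). BCL2 lay at 117, 99.1 and 89.1 CPM in the combination and 81.2, 109 and 93.3 CPM with VTP-50469, both far below DMSO at 359, 371 and 360.5 CPM. Of 23 p53 target genes 10 rose and 4 fell (median 0.24), where 16.7% of all genes rose and 24.6% fell. MDM2 was at 0.93, CCNG1 at 0.68 and ZMAT3 at 1.08, while CDKN1A did not pass (0.29). Cytokine feedback genes, 9 in number, gave 2 rises (PIM1 at 0.61 and BCL6 at 0.94) and 3 falls, with 1 fall called without VTP-50469 replicate 1 or 2. Those counts are not far from the shares over all genes (16.7% and 24.6%).

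Transcripts of the mitochondrial genome took a larger share of the combination libraries. The share of counts on mitochondrially encoded genes was 10.8%, 14.9% and 11.1% in the combination (mean 12.3% ± 2.26, SD, n = 3), against 5.09%, 4.09% and 4.06% with VTP-50469 (4.41% ± 0.585) and 3.24% ± 0.665 with DMSO. All 13 mitochondrially encoded protein genes rose, with a median of 1.31 and a range of 0.72 to 1.51. MT-CO3, a subunit of cytochrome c oxidase, had 9811, 12916 and 9144 CPM in the combination, 5372, 4426 and 4289 CPM with VTP-50469 and 4374, 3362 and 4689 CPM with DMSO (log2 fold change 1.18 ± 0.14 (SE), adjusted p = 1.13e-06). MT-RNR1 rose further, with 5927, 9124 and 6449 CPM in the combination, 1035, 967 and 902 CPM with VTP-50469 and 391, 334 and 429 CPM with DMSO (log2 fold change 2.89 ± 0.15 (SE), adjusted p = 2.72e-11). Combination replicate 2 was highest for each, and no combination library overlapped another group. SNORD3A, a small nucleolar RNA with no poly(A) tail, had 185, 288 and 90.8 CPM in the combination, 9.71, 10.5 and 9.25 CPM with VTP-50469 and 0.177, 0.634 and 0.0548 CPM with DMSO. Histone genes, whose replication-dependent transcripts also lack a poly(A) tail and which were looked at after their values were seen, were higher in 17 of 34 and lower in 1, with a median of 1.41 and HIST1H2BD at 57.8, 82.8 and 66.1 CPM in the combination and 13.3, 17.4 and 17.95 CPM with VTP-50469. These libraries were made from poly(A) RNA, and the part of RNA selection in these values was not tested. With mitochondrial genes removed before scaling, 6730 genes were called in place of 6767.

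**Figure D4:**
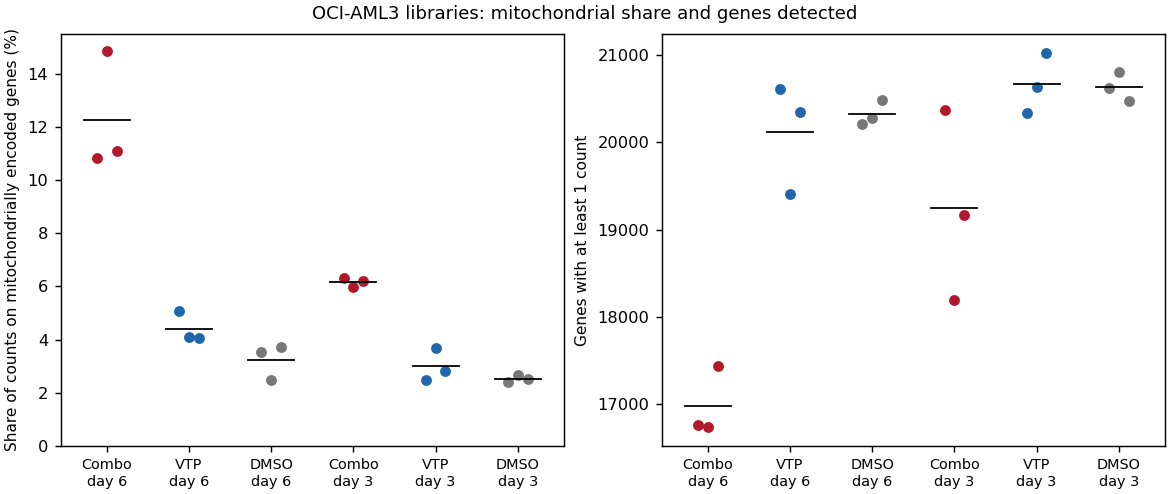
Share of counts on mitochondrially encoded genes (left, percent) and number of genes with at least 1 count (right; the axis does not start at 0) in each OCI-AML3 library, with the day 6 groups on the left of each panel and the day 3 groups on the right; points are libraries and bars group means (n = 3). The combination at day 6 has the highest shares, 10.8% to 14.9%, and the fewest genes, 16742 to 17438.

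The same comparison at day 3, which shares no library with that at day 6, asked which of these differences were already present. At day 3, 2980 genes (18.2%) were higher and 3927 (24.0%) lower in the combination than with VTP-50469. The difference between the days passed for 735 genes (4.49%) that were relatively higher at day 6 and 570 (3.48%) that were relatively lower. ERK feedback genes were low on both days, with 18 of 23 lower at day 3 (median -1.43), and DUSP6 had log2 fold changes of -3.68 at day 6 and -3.67 at day 3. All 36 replication genes were lower at day 3 as well (median -1.54), and 6 of them differed between the days, all with a smaller fall at day 6 (2 to 9 over the alternatives). Of the MYC and nucleolar genes, 27 of 28 were lower at day 3 (median -1.18), and 19 were relatively higher at day 6 (15 to 25 over the alternative settings). MYC had log2 fold changes of -0.47 at day 6 and -1.79 at day 3 (log2 difference 1.31 ± 0.15 (SE), adjusted p = 1.81e-05). Of 26 amino acid and unfolded protein genes 24 were lower at day 3 (median -1.86), and 8 of the list were relatively higher at day 6 and 2 relatively lower. The 8 became 3 without VTP-50469 day 3 replicate 1 and 11 without replicate 2, with 4 to 7 without any other library. CCND1 was also relatively higher at day 6 (log2 difference 1.444 ± 0.31 (SE), adjusted p = 0.00932), and BCL2, which was not called at day 6, had a log2 fold change of -0.86 at day 3 (log2 difference 0.96 ± 0.20 (SE), adjusted p = 0.00512). All 13 mitochondrially encoded protein genes were already higher at day 3 (median 0.86), and 0 of them differed between the days. The mitochondrial share at day 3 averaged 6.16% in the combination and 2.99% with VTP-50469. Neutrophil and granule genes were higher in 9 of 16 and lower in 1 at day 3 (median 0.71), and 4 were relatively higher at day 6. Of 23 monocyte and macrophage genes 8 were higher and 4 lower at day 3.

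For interferon-stimulated genes 1 library decides the day 3 value. With all libraries, 12 of 40 were lower and 2 higher at day 3 (median -0.32), and 9 were relatively lower at day 6. Without VTP-50469 day 3 replicate 2, which stands apart, 3 were lower and 19 higher at day 3 (median 0.55), and 36 were relatively lower at day 6. MX1 had 2.74, 1.06 and 2.53 CPM in the day 3 combination and 2.99, 11.3 and 3.32 CPM with VTP-50469 at day 3, so that every VTP-50469 library exceeded the combination and replicate 2 did so by most. MX2 had 109, 107 and 105 CPM in the day 3 combination and 91.3, 135 and 94.2 CPM with VTP-50469, where replicate 2 alone exceeded the combination (log2 difference -1.04 ± 0.14 (SE), adjusted p = 3.42e-05). Genes such as SPARC, with 4.43, 26.1 and 3.12 CPM in the 3 VTP-50469 libraries at day 3, and CXCL11, with 13.04, 59.5 and 9.503 CPM, were likewise highest in replicate 2. Over all genes, the number whose effect differed between the days was 1305, and it was 2562 without that library. It was 668 and 687 without VTP-50469 day 3 replicate 1 and 3, and 836 and 799 without VTP-50469 day 6 replicate 1 and 3. With library totals in place of TMM, 469 genes were relatively higher at day 6 and 1111 lower, and the median difference of all genes was -0.11.

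Among single genes, the largest relative rises at day 6 were those of SCN4A, C5AR1, GPR84, INHBE and CTXN1, each of which had 2.25 CPM or less in every combination library of both days. C5AR1, the receptor of complement fragment C5a, had 0, 2.25 and 1.01 CPM in the combination and 1.05, 1.51 and 1.31 CPM with VTP-50469 at day 6, and 0.362, 0 and 0 CPM in the combination and 12.01, 3.66 and 11.5 CPM with VTP-50469 at day 3. The largest relative falls were those of ONECUT3, NDUFA4L2, SLC44A2, HIST1H4H and GPRIN3. NDUFA4L2, a mitochondrial protein induced by hypoxia, had 1.24, 0.321 and 0.1896 CPM in the combination and 7.39, 7.95 and 8.93 CPM with VTP-50469 at day 6 (log2 difference -2.82 ± 0.43 (SE), adjusted p = 0.000209). The calls for SCN4A, INHBE, HIST1H4H and GPRIN3 were each lost on leaving out at least 1 library.

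NOMO1 was used to see which differences were shared by a second line. In 1 fit of all 42 libraries, 18707 genes were tested, of which 1861 (9.95%) were higher and 2296 (12.3%) lower in the NOMO1 combination than with VTP-50469 in NOMO1. The difference between combination and VTP-50469 at day 6 was higher in OCI-AML3 than in NOMO1 for 1717 genes (9.18%) and lower for 2134 (11.4%). ERK feedback genes were lower in both lines, 18 of 23 in OCI-AML3, from the fit of that line alone, and 14 in NOMO1 (medians -1.28 and -1.37). The amounts were unequal: 8 had a higher log2 fold change in OCI-AML3 and 4 a lower one, and the median difference over the list was 0.78. SPRY4 is an example, with 17.9, 18.5 and 23.5 CPM in the combination and 87.3, 70.9 and 86.5 CPM with VTP-50469 in OCI-AML3, and 2.55, 3.28 and 1.52 CPM in the combination and 83.9, 68.97 and 76.9 CPM with VTP-50469 in NOMO1 (log2 difference 2.91 ± 0.39 (SE), adjusted p = 1.84e-06). Replication genes differed in 35 of 36, all relatively lower in OCI-AML3; in NOMO1 4 rose and 8 fell (median -0.18), the first a share near that over all genes. MCM3 had 99.3, 85.7 and 84.8 CPM in the combination and 234, 239.7 and 236 CPM with VTP-50469 in OCI-AML3, and 189.5, 193 and 175 CPM in the combination and 260.2, 257 and 241 CPM with VTP-50469 in NOMO1 (log2 difference -0.95 ± 0.11 (SE), adjusted p = 2.04e-08). Of the interferon-stimulated genes 31 of 40 were relatively lower in OCI-AML3 and 0 higher, and in NOMO1 6 rose and 2 fell (median 0.41), against 9.95% and 12.3% of all genes. MX2 had 109, 128 and 108 CPM in the combination and 231, 233 and 232 CPM with VTP-50469 in OCI-AML3, and 40.4, 36.5 and 41.9 CPM in the combination and 34.5, 41.98 and 33.4 CPM with VTP-50469 in NOMO1 (log2 difference -1.12 ± 0.17 (SE), adjusted p = 1.98e-06).

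Mitochondrially encoded protein genes were relatively higher in OCI-AML3 for all 13, and 0 of them passed in NOMO1 (median -0.08). S100A9 went in opposite directions, with a log2 fold change of 2.36 in OCI-AML3 and -1.57 in NOMO1 in the fit of both lines (log2 difference 3.93 ± 0.14 (SE), adjusted p = 6.08e-25). In NOMO1 it had 2151, 2092 and 2029 CPM in the combination and 6129, 6585 and 5916 CPM with VTP-50469, levels far above those of OCI-AML3. MYC and nucleolar genes were lower in both lines, with 26 of 28 in NOMO1 (median -1.16), and 12 were relatively higher in OCI-AML3. Of 23 menin and KMT2A targets, 10 rose and 5 fell in NOMO1, against 9.95% and 12.3% of all genes. FLT3 rose by 1.53 in NOMO1, and its difference between the lines did not pass (log2 difference 0.46 ± 0.20 (SE), adjusted p = 0.0908). MEF2C fell further in NOMO1, at -1.66 (log2 difference 1.31 ± 0.26 (SE), adjusted p = 0.000409). Among single genes OLFML3 had the largest relative rise, with 2.81, 5.15 and 4.58 CPM in the combination and 0.0986, 0.306 and 0 CPM with VTP-50469 in OCI-AML3, and 3.51, 2.81 and 2.62 CPM in the combination and 16.4, 15.4 and 19.96 CPM with VTP-50469 in NOMO1. The remaining genes of largest difference, SLC26A8, CILP2, ARMC4 and ORM2 on the higher side and KRT17, KRT7, APP, COL17A1 and KRT81 on the lower, each had 3 counts or fewer in at least 1 of the 4 groups, so the size of their difference is not given. ORM2 shares most of its sequence with ORM1.

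**Figure D5:**
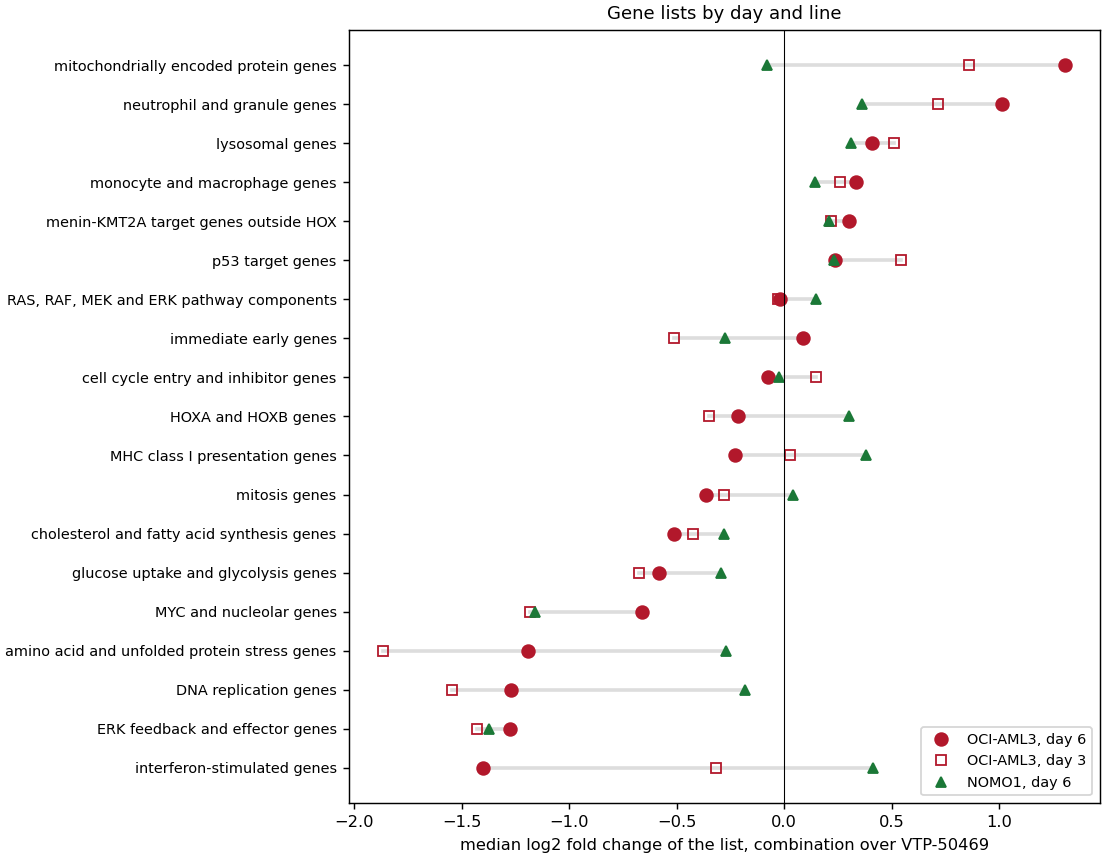
Median log2 fold change of the combination over VTP-50469 (horizontal) for each gene list, in OCI-AML3 at day 6 (filled circles), OCI-AML3 at day 3 (open squares) and NOMO1 at day 6 (triangles). NOMO1 medians come from the fit of both lines and the others from the fit of OCI-AML3 alone. ERK feedback genes have medians of -1.43 to -1.28 in all 3, and interferon-stimulated genes lie at -1.40 in OCI-AML3 at day 6, at -0.32 at day 3 (0.55 without VTP-50469 day 3 replicate 2) and at 0.41 in NOMO1.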

How the data were processed

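RNA of 42 libraries was sequenced as unstranded paired-end libraries of poly(A) RNA, per the labels' protocols. Tools listed in the submitters' processing notes are DESeq2 1.44.0, featureCounts, Subread 2.0.6, STAR, MultiQC 1.14 and FastQC 0.11.9, with build hg38. The authors deposited raw counts per gene, whose file header names GENCODE 30; 1 gene with an empty cell and 3 columns that match no label were left out. Gene positions come from GENCODE 29, matched by Ensembl identifier (173 of 173 named genes), and promoter sequences from RefSeq (GRCh38.p14).

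From these counts, the 21 OCI-AML3 libraries were fitted with 7 group means in edgeR 4.0.16 (R 4.3.3) with filterByExpr, TMM scaling and robust quasi-likelihood dispersions, and adjusted p-values are Benjamini-Hochberg values over all genes of a comparison. Standard errors are the log2 fold change divided by the root of the F statistic. The difference between the lines came from 1 fit of 42 libraries in 14 group means. Replicate numbers were not used to pair the libraries in the main fit. Deviations from the group means of same-numbered libraries correlated at -0.05 to 0.01, which does not settle whether they were paired. The fit was tested on simulated data. Adjusted p-values that DESeq2 did not give were left out. Named genes are the 12 largest rises and 12 largest falls whose libraries did not overlap and whose mean reached 5 CPM in either group, for each list the 4 called members with the lowest adjusted p, 22 followed genes, and the 5 largest rises and falls of each difference. Other members named, such as ETV4, PSAT1 and HIST1H2BD, were chosen after their values were seen, as was the histone list. Some genes that this rule names are not reported here. The comparison, the lists and the followed genes were chosen with earlier results of these data known. Folds against 0 counts take 3 counts as the group's floor; floors and intervals cover counting error only. Alternatives were DESeq2 1.42.0, other scalings and filters, a replicate block, removal of mitochondrial genes, a fit of only the groups compared, and leaving out each library. List counts for day 3 and both differences under these were added after the data were seen.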

Additional observations from a re-analysis of the deposited data

Results flagged for a closer look

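The effect of adding selumetinib differed between day 6 and day 3 for 1305 genes and between OCI-AML3 and NOMO1 for 3851 genes, by tests of the difference itself (edgeR, adjusted p under 0.05). Single genes are given as the log2 difference.

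Between the days, day 6 minus day 3, the difference was 5.93 for C5AR1, 4.60 for GPR84, 3.75 for INHBE, 1.444 for CCND1, 1.31 for MYC, 0.96 for BCL2, 0.81 for SPRY4, 0.78 for S100A9, 0.64 for HOXA9 and 0.48 for MCM3. It was negative for NDUFA4L2 (-2.82), SLC44A2 (-2.51), HIST1H4H (-2.49), GPRIN3 (-2.41) and MX2 (-1.04). The value of C5AR1 rests on 7 counts in the day 3 combination and was 10.15 without day 3 combination replicate 1. A group of SCN4A, CTXN1 and ONECUT3 had 3 counts or fewer, and their adjusted p-values were 0.00912, 0.00844 and 0.00845.

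Between the lines, OCI-AML3 minus NOMO1, the difference was 7.54 for OLFML3, 3.93 for S100A9, 2.91 for SPRY4, 1.59 for ITGAM, 1.37 for LYZ, 1.31 for both ETV5 and MEF2C, 1.24 for MT-CO3, 1.02 for MYC, 0.69 for BCL2 and 0.29 for MCL1. It was -3.08 for CD14, -1.12 for MX2, -1.11 for SHMT2, -0.95 for MCM3, -0.69 for KMT2A and -0.67 for CDK6. Genes with 3 counts or fewer in a group had adjusted p-values of 0.00296 (SLC26A8), 0.0126 (CILP2), 3.51e-05 (ARMC4), 0.000534 (ORM2), 0.00816 (KRT17), 0.0176 (KRT7), 0.000701 (APP), 1.83e-05 (COL17A1), 0.0216 (KRT81) and 0.000447 (MEIS1). The call for CILP2 was lost without OCI-AML3 combination replicate 3. That for KRT81 was lost without OCI-AML3 combination replicate 1, 2 or 3 or without OCI-AML3 VTP-50469 replicate 1. MEIS1 had 0 counts in the NOMO1 combination and 17 with VTP-50469 there, against 1429 and 2027 in the OCI-AML3 combination and VTP-50469 groups.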

How the results depend on the processing

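The number of genes called in the day 6 comparison ran from 5379, when only the 2 groups compared were fitted, to 6963 with DESeq2, and from 5974 to 6802 over left-out libraries. With the replicate block it was 6650 at day 6, 6786 at day 3, 1232 for the difference between the days and 3770 between the lines, and among genes named at day 6 the block ended the call of IL3RA, gave one to HOXA9 and changed no other. The difference between the days ran from 668 to 2562 genes over left-out libraries: 836 and 799 without VTP-50469 day 6 replicate 1 or 3, 668, 2562 and 687 without VTP-50469 day 3 replicate 1, 2 or 3. It was 1580 with library totals and 1632 with DESeq2. The difference between the lines ran from 3308 to 4238. No named gene changed sign with a call. Of the genes named at day 6, 13 lost their call under at least 1 alternative and 2 gained one (HOXA9 and KMT2A); those lost were ARRDC2, CD1A, CLEC10A, EBF1, EGR1, HLA-DRA, IL3RA, KRT17, KRT19, KRT8, MEF2C, OSM and RPS24, and the cause was not tested. Without combination replicate 1 the log2 fold changes of MMP1 and CD14 were -11.81 and -9.09, as the remaining combination libraries had 0 counts. Depth limits such low genes: CD14 had 5 counts over the 3 combination libraries and 205 with VTP-50469.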
